A study of Mus musculus with 9 samples.

Results

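A total of 185 of 18193 measured genes made up the atrial genes that the right atrium kept after COUP-TFII had been deleted from its muscle cells. Each gene was represented by its brightest probe set, and its level is the log2 of the deposited intensity, averaged over the 3 arrays of a group. A gene was taken in when its mean in the control right atrium was at least 7, when that mean exceeded the ventricular mean by at least 1, and when the mutant right atrium lay between 0.2 below and 1 above the control right atrium. A difference of 1 on this scale is a doubling. Y-linked genes and genes whose symbols begin with Nppa, Bmp, Id, Col, Kcn, Cacn, Tbx, Myl, Sema, Slit, Mfap, H2- or C1q were left out by name. The members were thus chosen by the measured means of all 3 groups, so their chamber differences and their mutant minus control differences are given below as descriptions and carry no test.

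RNA of 9 heart samples was labelled with a 3' IVT kit and read on mouse arrays of Affymetrix, with 3 biological replicates per group according to the labels. The mutant right atria had the genotype Myh6-cre; COUP-TFIIflox/flox. The control right atria and the control ventricles both came from COUP-TFIIflox/flox animals. All mice were 2 months old and on a C57BL/6 background. The Myh6 promoter drives Cre in cardiomyocytes, so the other cells of the atrium were not its target. Both control groups lacked Cre, and what Cre alone does cannot be told apart from the loss of the gene. The labels do not say whether tissue of several animals was pooled for an array.

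COUP-TFII is an orphan nuclear receptor encoded by Nr2f2, and among heart muscle cells it is found in those of the atria. Atrial and ventricular muscle differ in their contractile proteins, ion channels, gap junctions and hormone granules. The atrial wall also differs from the ventricular wall in the cells around the muscle, as it is thin and rich in fibroblasts, macrophages, endocardium, epicardium and autonomic nerve endings. In a bulk sample, fewer cells of a type and less RNA per cell cannot be told apart.

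The arrays were alike in scale, with a median intensity of 80.9 to 83.4 per array. Arrays of a group correlated at 0.994 to 0.997 across genes, and arrays of different groups at 0.958 to 0.988. Nr2f2 lay at 6.62 to 6.82 on the mutant arrays, 7.29 to 7.66 on the control atrium arrays and 5.34 to 5.96 on the ventricle arrays. Xist was high in all 3 ventricles, at 11.80 to 11.87, where the 3 Y-linked genes measured were at 3.62 to 4.12. Mutant array 1 had the same pattern, whereas mutant arrays 2 and 3 were high in the Y-linked genes and low in Xist. The control atria carried both kinds of transcript, with Xist at 12.73, 8.55 and 10.91 and the Y-linked Eif2s3y at 6.35, 9.97 and 9.53 on arrays 1 to 3. The control atria also carried liver transcripts, with albumin (Alb) at 12.25, 10.81 and 8.73 against 4.68 to 5.38 on the other 6 arrays. The Gapdh 3' minus 5' probe difference, a sign of RNA integrity, was 0.34 to 0.36 in the control atria, 0.21 to 0.30 in the mutant atria and 0.15 to 0.23 in the ventricles. The part of sex, of liver RNA and of RNA integrity in the levels of the members was not tested, apart from a fit with the Y-linked level as a covariate that is given in the closing section.

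Of the 774 genes that met both atrial conditions, 573 lay more than 0.2 below the control atrium in the mutant, 188 of them by 1 or more, and 9 lay more than 1 above it. A further 7 lay in the band and were left out by name. These were Bmp6, Cacna2d2, Col1a2, H2-Aa, Kcnt2, Nppa and Slit3. No gene was left out by name or as Y-linked from the 573 or the 9. The 573 thus include such genes as Myl7, Tbx5 and Uty, and the 9 include Sema3a. The median mutant minus control difference was 0.04 over the 185 members, 0.03 over all genes and -0.70 over the 573 genes below the band. The median chamber difference was 1.38 over the members, -0.07 over all genes and 1.67 over those 573 genes. The members spanned control atrium levels of 7.01 to 14.38 and ventricular levels of 4.78 to 13.25. Their standard error for the mutant minus control difference, from a limma fit over all 9 arrays, had a median of 0.13.

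**Figure D1:**
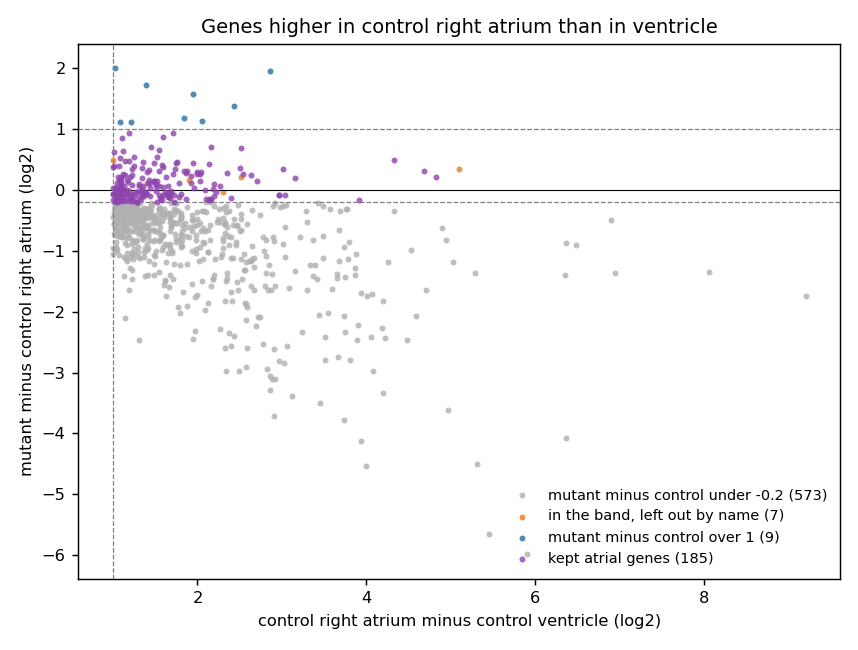
Each point is a gene with a control atrium level of at least 7 and a chamber difference of at least 1 (n = 774), placed by its chamber difference (x axis, log2) and its mutant minus control atrium difference (y axis, log2), with dashed lines at the thresholds of the rule. The 185 kept genes lie in the band from -0.2 to 1. The 573 grey points below it reach -5.99, the value of Serpina1c, a gene on the hepatocyte list.

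The genes that stood farthest above the ventricle among the members were Cd207, Vsig4 and Cxcl13, all grouped here with the immune genes. Their log2 chamber differences were 4.82 ± 0.12, 4.68 ± 0.12 and 4.32 ± 0.19 (SE). The RefSeq promoter stretches of these 3 genes and of Fgf7, the growth factor with the largest chamber difference, are shown because the deleted factor belongs to a receptor family that binds the letters AGGTCA. Each is the 250 bases before the transcription start on build GRCm38.p6, read 5' to 3' along the gene, and capitals mark AGGTCA or its reverse complement TGACCT.
Cd207: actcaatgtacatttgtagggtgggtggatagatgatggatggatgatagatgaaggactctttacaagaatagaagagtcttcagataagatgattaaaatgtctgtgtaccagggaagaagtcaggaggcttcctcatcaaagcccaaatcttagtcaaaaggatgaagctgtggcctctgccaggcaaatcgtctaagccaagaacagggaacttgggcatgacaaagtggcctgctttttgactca
Vsig4: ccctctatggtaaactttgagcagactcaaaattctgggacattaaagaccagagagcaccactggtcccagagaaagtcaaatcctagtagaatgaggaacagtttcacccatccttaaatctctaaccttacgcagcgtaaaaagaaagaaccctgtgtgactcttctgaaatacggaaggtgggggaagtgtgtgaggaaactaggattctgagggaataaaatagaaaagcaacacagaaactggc
Cxcl13: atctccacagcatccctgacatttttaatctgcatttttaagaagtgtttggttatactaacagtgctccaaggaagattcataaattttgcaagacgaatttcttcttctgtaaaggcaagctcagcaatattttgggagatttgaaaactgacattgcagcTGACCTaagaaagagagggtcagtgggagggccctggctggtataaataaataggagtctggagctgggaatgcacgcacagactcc
Fgf7: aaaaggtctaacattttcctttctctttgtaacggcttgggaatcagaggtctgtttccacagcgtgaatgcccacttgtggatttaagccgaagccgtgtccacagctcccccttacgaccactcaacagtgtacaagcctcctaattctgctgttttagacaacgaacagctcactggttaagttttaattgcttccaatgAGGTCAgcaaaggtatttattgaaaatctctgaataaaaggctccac
The windows lie at chr6:83677858-83678107 (- strand) for Cd207, chrX:96293439-96293688 (- strand) for Vsig4, chr5:95956689-95956938 (+ strand) for Cxcl13 and chr2:126034408-126034657 (+ strand) for Fgf7. Cxcl13 held 1 match, 87 bases before the start, and Fgf7 held 1 match, 47 bases before the start. The Cd207 and Vsig4 windows held 0 matches, which says only that these letters are not in the window. Among all 32851 promoters in the table, 14% held AGGTCA on either strand in the same 250 bases. A match is a run of letters and does not show a binding site. Of the 185 members, 132 had a promoter in the table, or 71.4%, which is under the 80% set as a minimum, so a share of members with the motif was not used.

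The immune genes were 25 of the 185 members, and 18 of them had a mutant mean above the control mean. The band reached from 0.2 below to 1 above the control atrium, which left more room above it than below. No direction is therefore read from this count or from the same counts for other groups of genes below. Cd207 encodes langerin, a lectin of Langerhans cells and other antigen-presenting cells. Its level was 10.48, 10.57 and 10.31 in control atria, 10.45, 10.75 and 10.83 in mutant atria and 5.62, 5.48 and 5.81 in ventricles. Vsig4, a complement receptor of tissue macrophages, was at 11.45, 11.31 and 11.11 in control atria, 11.43, 11.56 and 11.81 in mutant atria and 6.44, 6.65 and 6.72 in ventricles. Cxcl13, a chemokine that attracts B cells, was at 10.89, 10.44 and 10.47 in control atria, 11.16, 10.88 and 11.26 in mutant atria and 6.70, 6.03 and 6.12 in ventricles. In these 3 genes the arrays of the atrial groups overlapped, and every ventricle array was below every atrial array. A second probe set of Cxcl13, with a lower mean over all 9 arrays, was at 11.21 in the control atria, 11.61 in the mutant atria and 4.85 in the ventricles, so that its chamber difference was 6.36 there.

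Macrophage genes were represented by Csf1r, Cd163 and Cd14 among the members. Csf1r, the receptor that keeps macrophages alive, was at 11.94, 11.97 and 11.98 in control atria, 12.19, 12.43 and 12.41 in mutant atria and 11.10, 10.82 and 10.94 in ventricles. Every mutant array was above every control atrium array for it, with a difference of 0.38 ± 0.09 (SE). Cd163, the scavenger receptor for haemoglobin and haptoglobin, was at 10.11, 9.77 and 9.66 in control atria, 9.79, 10.13 and 9.82 in mutant atria and 8.73, 8.16 and 8.59 in ventricles. Cd14, a co-receptor for bacterial lipopolysaccharide, was at 9.41, 9.05 and 10.32 in mutant atria, 9.15, 9.12 and 9.99 in control atria and 8.55, 8.22 and 8.20 in ventricles. Both overlapped between the atrial groups, and each atrial group had 1 array of Cd14 that stood well above the other two. Further macrophage genes among the members, by group mean, were Msr1, a scavenger receptor, at 8.49 in control atria, 8.78 in mutant atria and 7.09 in ventricles, and Stab1, a clearance receptor, at 9.31 in control atria, 9.93 in mutant atria and 8.30 in ventricles. Ctss, a lysosomal protease of antigen processing, had means of 11.38 in control atria, 11.91 in mutant atria and 10.29 in ventricles. In Stab1 and Ctss no mutant array overlapped with a control atrium array, while in Msr1 the groups overlapped.

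Tnfsf13b (BAFF), a survival factor for B cells, had the highest mutant minus control difference of all members, 0.93 ± 0.14 (SE). It was at 8.37, 8.67 and 8.70 in mutant atria, 7.81, 7.65 and 7.48 in control atria and 6.55, 6.65 and 6.17 in ventricles, and the groups did not overlap. Icam1, an adhesion molecule for leukocytes, lay near the lower end of the band at -0.19 ± 0.16 (SE), with levels of 9.62, 9.57 and 9.78 in control atria, 9.46, 9.66 and 9.30 in mutant atria and 8.31, 7.61 and 7.90 in ventricles. Icam4, of the same family, was at 7.22, 6.93 and 6.94 in control atria, 7.38, 7.07 and 7.03 in mutant atria and 6.14, 6.0 and 5.70 in ventricles. The atrial groups overlapped in Icam1 and in Icam4. Gbp8, an interferon-inducible GTPase, was nearest to the level threshold, with 7.47, 6.67 and 6.89 in control atria, 6.91, 7.54 and 6.30 in mutant atria and 5.39, 5.23 and 5.26 in ventricles. Its mutant arrays spread over more than 1 unit.

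Jchain joins immunoglobulin chains and marks plasma cells. It was at 8.22, 6.26 and 7.03 in control atria, 7.29, 7.05 and 7.94 in mutant atria and 6.68, 3.88 and 4.86 in ventricles, and ventricle array 1 stood above control atrium array 2. Ifi202b, an interferon-inducible gene with close relatives that its probe set may also detect, was at 7.50, 7.76 and 7.41 in control atria, 7.50, 8.23 and 8.60 in mutant atria and 7.65, 6.31 and 4.96 in ventricles. Ventricle array 1 was as high as the control atria for it and ventricle array 3 was far lower. In Jchain ventricle array 1 stood 1.82 above the next ventricle, and in Ifi202b ventricle array 3 stood 1.35 below the next. Of the other immune members, Itgal, the alpha chain of the leukocyte integrin LFA-1, had means of 8.26 in control atria, 8.57 in mutant atria and 6.23 in ventricles, and Fgl2, a fibrinogen-like protein, had means of 11.41 in control atria, 11.72 in mutant atria and 9.53 in ventricles. In both of them every mutant array was above every control atrium array. The complement genes C1ra, Cfi and Serping1 had mutant minus control differences of -0.08, -0.08 and 0.17, and their arrays overlapped. The probe set of C1ra may also detect a near-identical relative.

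A macrophage list of 16 measured genes held 3 members, Csf1r, Cd163 and Cd14. Of the other 13 genes, 6 were higher in the mutant than in the control atrium at an adjusted p under 0.05 in limma and 0 were lower, against 7.76% and 9.79% of all genes. At an unadjusted p under 0.05 the counts were also 6 and 0. The 6 were Cd68, Laptm5, Aif1, Mrc1, Adgre1 and Tyrobp, named here after their values were seen. Cd68 differed by 0.79 ± 0.13 (SE, limma adjusted p = 0.00428) and Laptm5 by 0.64 ± 0.15 (limma adjusted p = 0.0193). The median over the 13 genes was 0.45, against 0.03 over all genes. The summed intensity of the 16 genes was 16630 to 22067 in the mutant atria, 14550 to 15120 in the control atria and 7502 to 11479 in the ventricles. Over the whole list, the number called higher was 7 and fell to 1 without mutant array 2 or control atrium array 2. It was 2 without mutant array 3 or control atrium array 3, and 3 without control atrium array 1 or with the replicate number as a block. The part of these cells in the levels of the immune members was not tested.

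**Figure D2:**
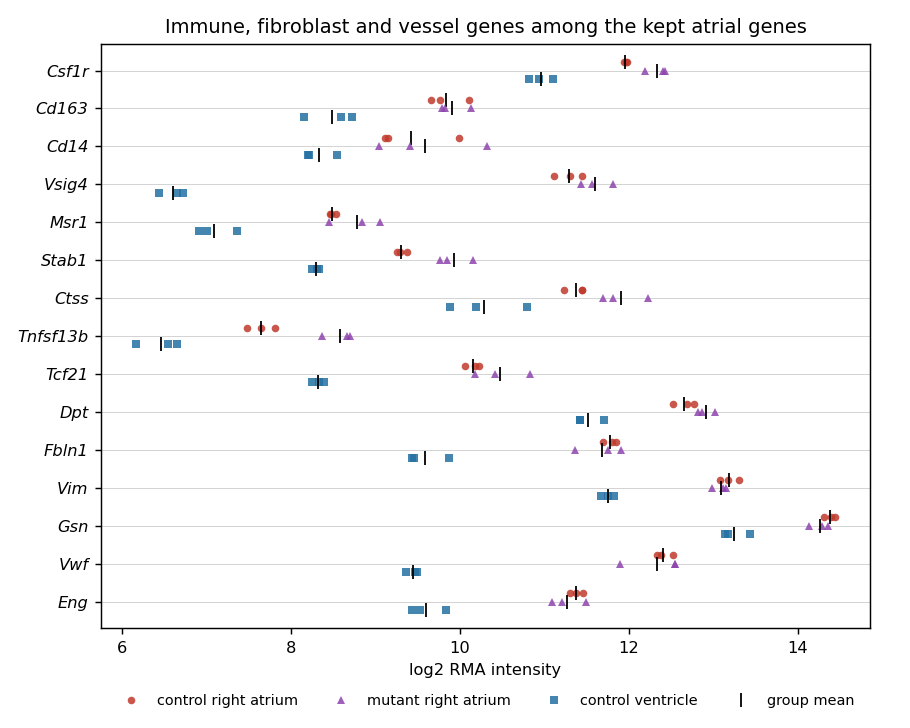
Log2 intensity (x axis) of 15 immune, fibroblast and vessel genes among the kept atrial genes, with 1 point per array (3 per group) and a black bar for each group mean. Every ventricle array lies to the left of every atrial array for each gene shown, and in Csf1r, Stab1, Ctss, Tnfsf13b and Dpt the 3 mutant arrays lie to the right of the 3 control atrium arrays.

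The extracellular matrix supplied 24 members, 18 with a mutant mean above the control mean. Comp, a cartilage oligomeric matrix protein also made in valves and tendons, had the largest chamber difference of them, 3.91 ± 0.24. It was at 10.25, 10.27 and 10.18 in control atria, 10.65, 9.57 and 10 in mutant atria and 6.66, 6.23 and 6.07 in ventricles, so that the mutant arrays spread over a unit around tightly grouped controls. Vit (vitrin), a matrix protein with von Willebrand type domains, was at 8.67, 8.60 and 8.63 in control atria, 8.86, 8.66 and 8.94 in mutant atria and 5.37, 5.44 and 5.65 in ventricles. Fbln1, an elastic fibre component on the fibroblast list, was at 11.91, 11.37 and 11.76 in mutant atria, 11.80, 11.69 and 11.85 in control atria and 9.44, 9.46 and 9.87 in ventricles. Comp, Vit and Fbln1 overlapped between the atrial groups. Mgp, a secreted inhibitor of calcification, was among the brightest members, at 14.29, 14.29 and 14.35 in control atria, 14.31, 14.36 and 14.44 in mutant atria and 12.83, 12.63 and 12.93 in ventricles. These levels lie close to the highest value in the data, 15.11. Dpt (dermatopontin), a collagen-binding protein on the fibroblast list, was at 12.77, 12.53 and 12.69 in control atria, 13.02, 12.87 and 12.82 in mutant atria and 11.42, 11.42 and 11.71 in ventricles, with no overlap between the atrial groups.

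The other matrix members are given by group means. Smoc1, a calcium-binding basement membrane protein, was at 9.81 in control atria, 10.17 in mutant atria and 7.30 in ventricles. Ccdc80, a secreted matrix protein, was at 12.17 in control atria, 12.40 in mutant atria and 10.25 in ventricles. Eln, the elastin gene, was at 8.65 in control atria, 8.72 in mutant atria and 7.34 in ventricles. In all 3 the atrial groups overlapped. Timp1 and Timp2, inhibitors of matrix metalloproteinases, had mutant minus control differences of 0.14 and -0.02, and the proteoglycan gene Bgn one of 0.03. Another bright probe set of Timp2, at 11.94 in control atria and 11.50 in mutant atria, differed by -0.44, below the band. Its other probe sets with a control atrium mean of at least 7 differed by -0.05 and 0.14. Fn1 (fibronectin) was at 10.13 in control atria, 10.25 in mutant atria and 9.09 in ventricles, and its mutant arrays lay above its control arrays although the means differed by only 0.11. Adamts15, Abi3bp and Thsd4 were the other matrix members without overlap, with differences of 0.26, 0.31 and 0.47.

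The fibroblast list of 16 measured genes held 5 members, which were Dpt, Fbln1, Gsn, Tcf21 and Vim, and 4 genes that the rule leaves out by name, Col1a1, Col1a2, Col3a1 and Mfap5. Tcf21, a transcription factor of cardiac fibroblasts and their epicardial precursors, was at 10.23, 10.06 and 10.18 in control atria, 10.83, 10.18 and 10.42 in mutant atria and 8.33, 8.25 and 8.39 in ventricles. Vim, the intermediate filament of non-muscle cells, was at 13.08, 13.18 and 13.30 in control atria, 13.15, 13.12 and 12.99 in mutant atria and 11.75, 11.67 and 11.83 in ventricles. Gsn (gelsolin), an actin-severing protein, was the brightest member, at 14.29, 14.13 and 14.36 in mutant atria, 14.39, 14.31 and 14.44 in control atria and 13.14, 13.18 and 13.43 in ventricles. All 3 overlapped between the atrial groups. Of the other 11 genes, 3 were higher and 1 was lower in the mutant at an adjusted p under 0.05 in limma. Among all genes 7.76% were higher and 9.79% lower. The 3 list genes were Mfap5, Thy1 and Lum and the 1 was Postn, named after their values were seen. Of the same 11, 8 were higher in the control atrium than in the ventricle, against 23.6% of all genes. Mfap5, a microfibril protein, differed by 0.55 ± 0.07 (SE, limma adjusted p = 0.00106), and Postn (periostin) by -0.67 ± 0.20 (limma adjusted p = 0.0476). The number called lower was 0 without mutant array 1 or 3, any control atrium array, or ventricle array 1 or 3, and 0 to 2 over the other alternatives. The summed intensity of the list was 95823 to 97003 in the mutant atria, 89560 to 97161 in the control atria and 47323 to 53046 in the ventricles. The part of fibroblast number in these values was not tested.

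Among growth factors and their regulators, 20 members were found, 7 with a mutant mean above the control mean. Fgf7, a ligand of an FGF receptor on epithelial cells, was at 9.03, 9.05 and 8.67 in control atria, 9.39, 8.12 and 8.99 in mutant atria and 5.76, 5.92 and 5.96 in ventricles. Igf1, the insulin-like growth factor, was at 9.66, 9.99 and 10.17 in control atria, 9.42, 10.72 and 10.85 in mutant atria and 9.09, 8.81 and 8.88 in ventricles. Mutant array 1 was the lowest atrial array for Igf1 and mutant arrays 2 and 3 were the highest. Angpt1, the ligand of the endothelial receptor Tek, was at 12.28, 12.12 and 12.01 in control atria, 12.39, 12.34 and 12.32 in mutant atria and 10.42, 10.62 and 10.48 in ventricles, with no overlap. Tek itself, which is not a member, was lower in the mutant with a difference of -0.61 ± 0.13 (SE, limma adjusted p = 0.0109).

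Nrtn (neurturin) supports parasympathetic neurons through a GDNF family receptor. It was at 11.61, 11.92 and 11.39 in mutant atria, 10.72, 10.88 and 10.54 in control atria and 9.30, 8.84 and 8.88 in ventricles, and its mutant minus control difference of 0.93 ± 0.16 (SE) was the second largest among members. Mdk (midkine), a heparin-binding growth factor, was at 8.27, 8.07 and 8.02 in control atria, 8.23, 8.12 and 7.82 in mutant atria and 7.0, 6.94 and 6.76 in ventricles. Gas6, the ligand of the TAM receptor kinases, was at 11.75, 11.74 and 11.83 in control atria, 12.04, 11.62 and 11.64 in mutant atria and 10.56, 10.64 and 10.61 in ventricles. The mutant arrays of Nrtn were all above the controls, whereas those of Mdk and Gas6 lay on both sides. Tgfb3, a TGF-beta ligand, was at 8.79, 8.77 and 8.85 in control atria, 8.63, 8.67 and 8.94 in mutant atria and 7.26, 7.27 and 7.68 in ventricles. Eng (endoglin), a TGF-beta co-receptor of endothelial cells, was at 11.46, 11.38 and 11.30 in control atria, 11.49, 11.09 and 11.21 in mutant atria and 9.43, 9.53 and 9.84 in ventricles. Smad7, the inhibitory Smad of that pathway, was at 10.18, 10.30 and 10.23 in mutant atria, 10.48, 10.36 and 10.36 in control atria and 8.65, 8.78 and 9.06 in ventricles. Only Smad7 of these 3 had no overlap between the atrial groups, with every mutant array below every control array.

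Ccn2 (connective tissue growth factor) was the only member on the list of stress genes and was at 13.41, 13.52 and 13.58 in control atria, 13.97, 13.47 and 13.91 in mutant atria and 11.01, 11.51 and 10.95 in ventricles. Igfbp3, a binding protein that limits IGF access to its receptor, was at 11.66, 10.85 and 11.12 in control atria, 12.25, 10.25 and 11.04 in mutant atria and 8.81, 9.05 and 9.11 in ventricles. Igfbp4, of the same family, was at 13.19, 12.97 and 12.93 in mutant atria, 13.33, 13.06 and 13.16 in control atria and 11.03, 10.96 and 11.16 in ventricles. The mutant arrays of Igfbp3 differed among themselves by more than a unit, with array 1 the highest, and all 3 genes overlapped between the atrial groups. Frzb, a secreted antagonist of Wnt ligands, was at 7.89, 7.84 and 7.87 in control atria, 8.17, 7.98 and 8.20 in mutant atria and 6.82, 6.47 and 6.63 in ventricles. Apcdd1, a membrane-bound Wnt inhibitor, was at 7.66, 7.71 and 7.53 in control atria, 7.76, 7.53 and 7.50 in mutant atria and 6.08, 5.74 and 6.26 in ventricles. Wls, which carries Wnt ligands to the cell surface, was at 10.80, 11.01 and 10.76 in control atria, 11.05, 10.84 and 10.86 in mutant atria and 9.80, 9.48 and 9.89 in ventricles. Frzb was higher in every mutant array, and Apcdd1 and Wls overlapped. Fstl1, a secreted glycoprotein of the follistatin family, was at 11.73, 11.76 and 11.90 in control atria, 11.74, 11.92 and 11.72 in mutant atria and 10.55, 10.57 and 10.70 in ventricles. Nucb2, the precursor of nesfatin, was at 8.73, 8.63 and 8.80 in mutant atria, 8.69, 8.88 and 8.68 in control atria and 7.57, 7.23 and 7.65 in ventricles. Ecrg4, the precursor of augurin, was at 8.25, 8.75 and 8.41 in control atria, 8.74, 7.81 and 8.45 in mutant atria and 6.49, 6.19 and 6.42 in ventricles. These 3 overlapped, and Ecrg4 was lowest in mutant array 2. Pdgfrl, a PDGF receptor-like protein, was at 7.93, 7.75 and 7.77 in control atria, 8.02, 7.85 and 7.93 in mutant atria and 5.90, 6.02 and 6.20 in ventricles. Fgfr1, an FGF receptor kinase, was at 9.15, 9.22 and 9.15 in control atria, 9.10, 9.21 and 9.05 in mutant atria and 8.09, 8.10 and 8.33 in ventricles and lay just inside the chamber threshold. Both overlapped between the atrial groups.

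**Figure D3:**
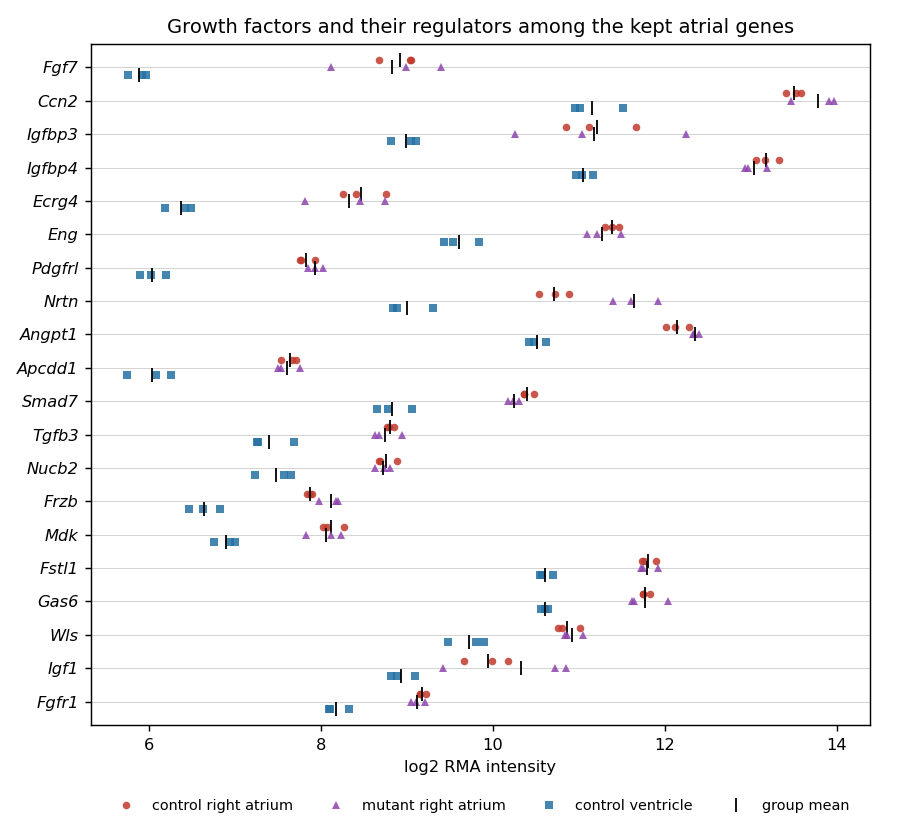
Log2 intensity (x axis) of the 20 growth factors and regulators among the kept atrial genes, with 1 point per array (3 per group) and a black bar for each group mean. Nrtn, Angpt1 and Frzb have all 3 mutant arrays to the right of the control atria, and Smad7 has them to the left.

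The vessel wall and the endocardium were represented by 5 members. Vwf, the clotting factor carrier stored in endothelial cells, was at 12.53, 12.38 and 12.33 in control atria, 12.55, 12.55 and 11.90 in mutant atria and 9.50, 9.47 and 9.37 in ventricles. Bmx, a tyrosine kinase of arterial endothelium and endocardium, was at 8.41, 8.26 and 7.84 in control atria, 8.89, 8.31 and 8.35 in mutant atria and 5.46, 5.0 and 5.02 in ventricles. Tm4sf1, an endothelial surface protein, was at 13.03, 12.71 and 12.88 in mutant atria, 13.13, 12.85 and 12.78 in control atria and 11.55, 11.05 and 11.22 in ventricles. All 3 overlapped between the atrial groups. Vcam1, an adhesion molecule, had means of 10.70 in control atria, 10.96 in mutant atria and 8.71 in ventricles and no overlap, and Ece1, which processes endothelin, had means of 11.53 in control atria, 11.42 in mutant atria and 9.86 in ventricles. Vwf was the only member on an endothelial list of 15 genes. Of the other 14, 1 was higher in the mutant (Fabp4) and 3 were lower (Nos3, Tek and Nfatc1) at an adjusted p under 0.05 in limma. Against this, 7.76% of all genes were higher and 9.79% lower. These 4 genes were named after their values were seen. The number of list genes called higher was 2 without mutant array 1. Nos3, the endothelial nitric oxide synthase, differed by -0.81 ± 0.15 (SE, limma adjusted p = 0.00600). The summed intensity of the list was 31510 to 38007 in the mutant atria, 34986 to 36580 in the control atria and 21151 to 23652 in the ventricles, and its part in the vessel members was not tested.

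Receptors, G proteins and transport proteins numbered 15, and 12 had a mutant mean above the control mean. Rgs6 and Rgs7 belong to a family that shortens G protein signals, and Rgs6 is known to limit the muscarinic slowing of the heart. Rgs6 was at 8.46, 8.68 and 8.66 in control atria, 8.57, 8.77 and 8.88 in mutant atria and 7.33, 7.22 and 6.81 in ventricles. Rgs7 was at 9.41, 9.31 and 8.97 in control atria, 9.72, 9.47 and 9.81 in mutant atria and 7.18, 6.92 and 7.18 in ventricles. Gnai1, an inhibitory G alpha subunit, was at 9.79, 10.20 and 9.61 in control atria, 9.55, 10.24 and 10.32 in mutant atria and 8.37, 8.63 and 9.11 in ventricles. Rgs7 had every mutant array above every control array, and the other two overlapped. Rgs2, which acts on Gq signals, was at 12.56, 12.05 and 12.07 in mutant atria, 12.25, 11.90 and 11.91 in control atria and 11.01, 11.03 and 10.84 in ventricles. Rgs12, a larger member of the family, was at 8.82, 8.95 and 9.16 in mutant atria, 9.11, 9.17 and 9.0 in control atria and 7.50, 7.45 and 7.40 in ventricles. Both overlapped. Rgs6 was the only member on a sinus node list of 10 genes. Of the other 9 genes, 3 were higher and 3 lower in the mutant at an adjusted p under 0.05 in limma. This compares with 7.76% and 9.79% of all genes. Gjc1, the connexin of nodal tissue, differed by 1.21 ± 0.08 (SE, limma adjusted p = 2.1e-05) and Cpne5 by -2.09 ± 0.17 (limma adjusted p = 6.4e-05). Tbx3 was higher by 0.91 ± 0.21 (limma adjusted p = 0.0193) and Vsnl1 differed by -0.40 ± 0.09 (limma adjusted p = 0.0160). Leaving out single arrays brought these counts to as few as 1 each. For those higher, this was without mutant array 3, control atrium array 1 or control atrium array 3. For those lower, it was without mutant array 3 or control atrium array 1.

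Gabra3, a subunit of the GABA-A chloride channel, was at 8.14, 7.83 and 7.83 in control atria, 8.58, 7.83 and 8.18 in mutant atria and 5.33, 5.37 and 5.48 in ventricles. Calhm5, of the CALHM channel family, was at 7.87, 8.04 and 7.36 in control atria, 8.13, 8.53 and 8.69 in mutant atria and 6.24, 6.21 and 6.47 in ventricles. Neto2, an auxiliary subunit of kainate receptors, was at 7.77, 7.98 and 7.49 in control atria, 7.88, 7.86 and 8.49 in mutant atria and 6.34, 5.80 and 6.80 in ventricles. Calhm5 had every mutant array above every control array, by 0.70 ± 0.19 (SE) on average, and Gabra3 and Neto2 overlapped. Atp1b3, a beta subunit of the sodium pump, was at 12.10, 11.77 and 11.82 in mutant atria, 12.10, 12.01 and 12.12 in control atria and 11.06, 10.98 and 10.95 in ventricles. Wnk4, a kinase that regulates salt cotransporters, was at 8.37, 8.67 and 8.46 in control atria, 9.19, 8.59 and 8.91 in mutant atria and 7.36, 7.46 and 7.48 in ventricles. Itgb8, an integrin that activates latent TGF-beta, was at 8.30, 7.80 and 7.67 in control atria, 7.93, 7.75 and 8.10 in mutant atria and 5.77, 5.55 and 5.91 in ventricles. The groups overlapped in these 3. Gprc5b, an orphan G protein-coupled receptor, was at 9.39, 9.73 and 8.98 in control atria, 9.96, 9.44 and 9.73 in mutant atria and 7.56, 7.65 and 7.71 in ventricles. Adgrl1 (latrophilin), an adhesion receptor, was at 8.84, 9.13 and 8.90 in control atria, 9.04, 8.83 and 9.16 in mutant atria and 7.86, 7.81 and 8.10 in ventricles. Both overlapped between the atrial groups. Gprasp1 and Gprasp2, which sort receptors for degradation and are encoded on the X chromosome, were both members. Gprasp1 was at 10.57, 10.56 and 10.77 in control atria, 10.62, 10.18 and 10.53 in mutant atria and 9.47, 9.68 and 9.58 in ventricles, and a second, dimmer probe set of it had a chamber difference of -0.29. Gprasp2 was at 8.92, 8.27 and 8.41 in mutant atria, 8.38, 8.41 and 8.52 in control atria and 6.01, 6.27 and 6.41 in ventricles, and both overlapped.

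Vesicle and neuronal proteins gave 8 members. A list of 17 measured neuron and Schwann cell genes held 0 members. In limma at an adjusted p under 0.05, 2 of the 17 were higher in the mutant and 1 was lower. Over all genes 7.76% were higher and 9.79% lower. The part of nerve cells in the levels of the 8 members was not tested. Snap91, a clathrin assembly protein of synaptic vesicles, was at 8.81, 8.75 and 9.10 in control atria, 8.92, 9.03 and 9.60 in mutant atria and 4.98, 7.50 and 8.19 in ventricles. Ventricle array 1 was lower than the other ventricles by 2.52, the widest gap of an array to its group among all members. Dpysl2, a microtubule regulator of growing axons, was at 13.08, 13.05 and 13.09 in control atria, 13.12, 12.86 and 13.14 in mutant atria and 11.82, 11.67 and 11.93 in ventricles. Chn2, a Rac-inactivating chimaerin just above the level threshold, was at 7.0, 7.13 and 7.04 in control atria, 7.24, 7.20 and 7.34 in mutant atria and 5.77, 5.55 and 5.83 in ventricles, with no overlap. Camk1g, a calcium-dependent kinase, had means of 7.60 in control atria, 8.26 in mutant atria and 6.06 in ventricles, and Syn2, a synapsin of synaptic vesicles, had means of 7.57 in control atria, 8.03 in mutant atria and 6.21 in ventricles. Dpysl3 had means of 10.80 in control atria, 11.13 in mutant atria and 9.56 in ventricles, and in these 3 genes the atrial arrays did not overlap either. Of a list of 24 secretory granule genes, 0 were members. By limma at an adjusted p under 0.05, 3 of the 24 were higher in the mutant and 1 was lower. The shares over all genes were 7.76% higher and 9.79% lower. Pam, which amidates peptide hormones, was the lower gene at -0.68 ± 0.19 (SE, limma adjusted p = 0.0355), a call that was lost without mutant array 2 or 3 or any control atrium array. Ptprn, Rab3a and Scg3 were higher, by 1.02 ± 0.15, 0.43 ± 0.07 and 0.62 ± 0.13 (SE, limma adjusted p = 0.00231, 0.00394 and 0.0108).

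Regulators of transcription and chromatin numbered 8. Dbp, an output factor of the circadian clock, was at 11.57, 11.95 and 11.58 in control atria, 11.63, 11.79 and 11.18 in mutant atria and 10.37, 10.23 and 10.85 in ventricles. Hlf, of the same family, was at 9.23, 9.42 and 9.18 in control atria, 9.29, 9.23 and 8.84 in mutant atria and 7.86, 8.20 and 8.47 in ventricles. Egr1, an immediate early gene that handling of tissue can induce, was at 9.67, 10.28 and 10.09 in control atria, 10.20, 9.33 and 10.10 in mutant atria and 8.96, 8.32 and 8.78 in ventricles. The atrial arrays overlapped in all 3, and the time of day at dissection is not given in the labels. Foxp2, a forkhead factor, was at 9.17, 8.91 and 8.87 in control atria, 9.32, 9.07 and 9.20 in mutant atria and 7.71, 7.83 and 7.80 in ventricles. Runx1t1, a corepressor, was at 8.52, 8.49 and 8.32 in control atria, 8.47, 8.18 and 8.37 in mutant atria and 6.89, 7.24 and 7.08 in ventricles. Hmgn3, which binds nucleosomes, was at 9.79, 9.79 and 10.49 in mutant atria, 10.03, 9.89 and 9.81 in control atria and 8.18, 8.45 and 8.78 in ventricles. These 3 overlapped, and mutant array 3 stood above the other atrial arrays for Hmgn3. Zbtb4, a zinc finger protein that binds methylated DNA, was at 10.99, 11.05 and 10.99 in control atria, 10.85, 10.83 and 10.88 in mutant atria and 10, 9.99 and 10.03 in ventricles, with every mutant array below every control array by a small step. It was also the member nearest to the chamber threshold. Other probe sets of Zbtb4, with control atrium means of 10.50 and 9.48, had mutant minus control differences of -0.31 and -0.36, below the band. A dim probe set of it, at 5.87 in the control atria, differed by -0.04.

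Enzymes and lipid-binding proteins were the largest group with a named role, at 34 members. Enpp6, a choline-specific phosphodiesterase, was at 9.80, 9.90 and 9.72 in control atria, 9.96, 9.56 and 9.60 in mutant atria and 7.02, 7.02 and 6.48 in ventricles. Cdo1 (cysteine dioxygenase), which starts the breakdown of cysteine, was at 9.05, 8.31 and 9.11 in control atria, 9.11, 8.74 and 9.33 in mutant atria and 6.61, 6.13 and 5.82 in ventricles. Fabp5, a fatty acid-binding protein, was at 13.23, 13.07 and 13.05 in control atria, 13.28, 12.84 and 12.88 in mutant atria and 11.67, 11.44 and 11.54 in ventricles. The atrial groups overlapped in these 3. Inmt, a methyltransferase of indole amines, was at 9.98, 10.77 and 10.58 in mutant atria, 9.63, 9.63 and 9.50 in control atria and 8.69, 8.07 and 8.67 in ventricles. Aox3, an aldehyde oxidase, was at 7.87, 7.97 and 8.63 in mutant atria, 7.60, 7.44 and 7.31 in control atria and 5.45, 5.04 and 5.38 in ventricles. Neither overlapped, and their mutant minus control differences of 0.86 ± 0.21 (SE) and 0.71 ± 0.19 (SE) were among the 6 highest of all members. Bace2, a membrane protease, was at 8.85, 8.55 and 8.76 in control atria, 9.97, 8.57 and 8.72 in mutant atria and 7.19, 7.12 and 7.09 in ventricles, and mutant array 1 alone stood above the others. Pld1, a phospholipase, was at 9.49, 9.49 and 9.44 in control atria, 9.37, 9.15 and 9.33 in mutant atria and 8.10, 8.17 and 8.32 in ventricles. Gk5, a glycerol kinase-like protein, was at 7.80, 7.63 and 7.36 in control atria, 7.57, 7.15 and 7.48 in mutant atria and 6.55, 6.72 and 6.41 in ventricles. Both lay at the lower end of the band, and Pld1 was lower in every mutant array.

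Prkag2, a regulatory subunit of AMP-activated kinase, had means of 10.35 in control atria, 10.35 in mutant atria and 8.26 in ventricles. Apoe, the lipid carrier of macrophages and other cells, had means of 12.55 in control atria, 12.42 in mutant atria and 10.15 in ventricles. Hpgd, which inactivates prostaglandins, had means of 10.53 in control atria, 10.59 in mutant atria and 8.26 in ventricles. Aldh1a1, which makes retinoic acid, had means of 10.35 in control atria, 10.41 in mutant atria and 8.70 in ventricles. Pla2g4a, the phospholipase that frees arachidonic acid, had means of 9.55 in control atria, 9.41 in mutant atria and 7.39 in ventricles. All 5 overlapped between the atrial groups, and their mutant and control means lay within 0.2 of each other. Apod, a lipocalin, was the third member in which a ventricle array was not below every atrial array, beside Jchain and Ifi202b, and had means of 8.70 in control atria, 8.55 in mutant atria and 7.67 in ventricles.

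The remaining 46 members had other or unsettled roles. Enkur, a protein of cilia and sperm, was at 7.99, 8.17 and 8.0 in control atria, 7.92, 8.44 and 8.21 in mutant atria and 5.57, 4.95 and 5.53 in ventricles. Plet1, a placenta-expressed surface protein, was at 8.02, 7.49 and 9.18 in mutant atria, 7.49, 7.26 and 7.33 in control atria and 6.25, 5.10 and 5.95 in ventricles. Golim4, a Golgi membrane protein, was at 11.34, 11.32 and 11.34 in control atria, 11.13, 11.12 and 11.18 in mutant atria and 9.95, 10.01 and 10.20 in ventricles. Enkur overlapped, Plet1 was higher in every mutant array by a step that rounding hides, and Golim4 was lower in every mutant array. Selenom, a selenoprotein of the endoplasmic reticulum, was at 10.88, 10.59 and 10.49 in control atria, 10.53, 10.41 and 10.43 in mutant atria and 9.10, 9.08 and 9.22 in ventricles and was the member nearest to the lower end of the band. Ints6l, a relative of a subunit of the Integrator complex encoded on the X chromosome, was at 10.29, 10.09 and 10.07 in control atria, 10.13, 10.02 and 10.10 in mutant atria and 9.13, 9.16 and 9.15 in ventricles. Both overlapped between the atrial groups. Gm13306 had means of 8.43 in control atria, 8.54 in mutant atria and 6.51 in ventricles, and its probe set may also detect near-identical chemokine genes.

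**Figure D4:**
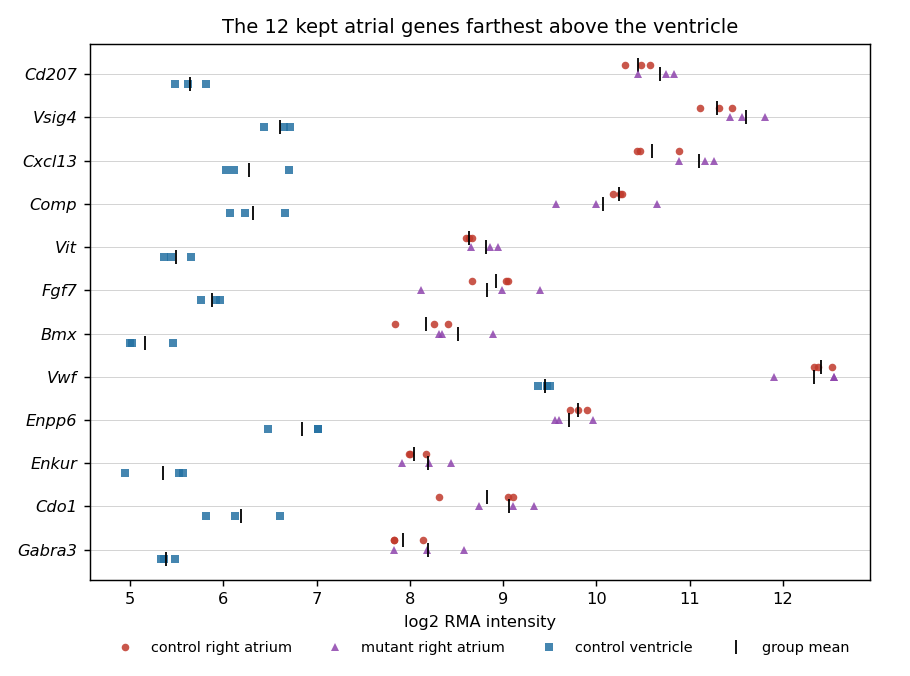
Log2 intensity (x axis) of the 12 kept atrial genes with the largest chamber difference, with 1 point per array (3 per group) and a black bar for each group mean. The ventricle arrays lie 1 unit or more to the left of every atrial array for each gene, and the mutant and control atrium arrays overlap in all 12.

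Across the groups of genes, the median mutant minus control difference was 0.25 for vesicle and neuronal genes, 0.22 for immune genes, 0.17 for receptors and transport and 0.09 for matrix. It was -0.01 for enzymes, -0.03 for growth signalling, -0.05 for the vessel wall, -0.07 for the rest and -0.12 for transcription. Of the 185 members, 127 lay within 0.2 of the control atrium, 58 were more than 0.2 above it and 14 more than 0.5 above it. The band that chose them allowed larger differences above the control than below it. In 146 members the mutant and control atrium arrays overlapped, in 31 every mutant array was higher and in 8 every mutant array was lower. Over all genes, 18.9% had every mutant array higher and 18.9% every mutant array lower. Every ventricle array was below every array of both atrial groups in 182 members, against 17.1% of all genes. In limma at an adjusted p under 0.05, 14 members were called higher in the mutant than in the control atrium and 0 lower, against 7.76% and 9.79% of all genes, and at an unadjusted p under 0.05 32 were higher and 4 lower. A total of 184 members were called higher in the control atrium than in the ventricle, against 23.6% of all genes, and 185 higher in the mutant atrium than in the ventricle, against 16% of all genes. The rule used all of these contrasts, so nothing is read from the members' counts.

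**Figure D5:**
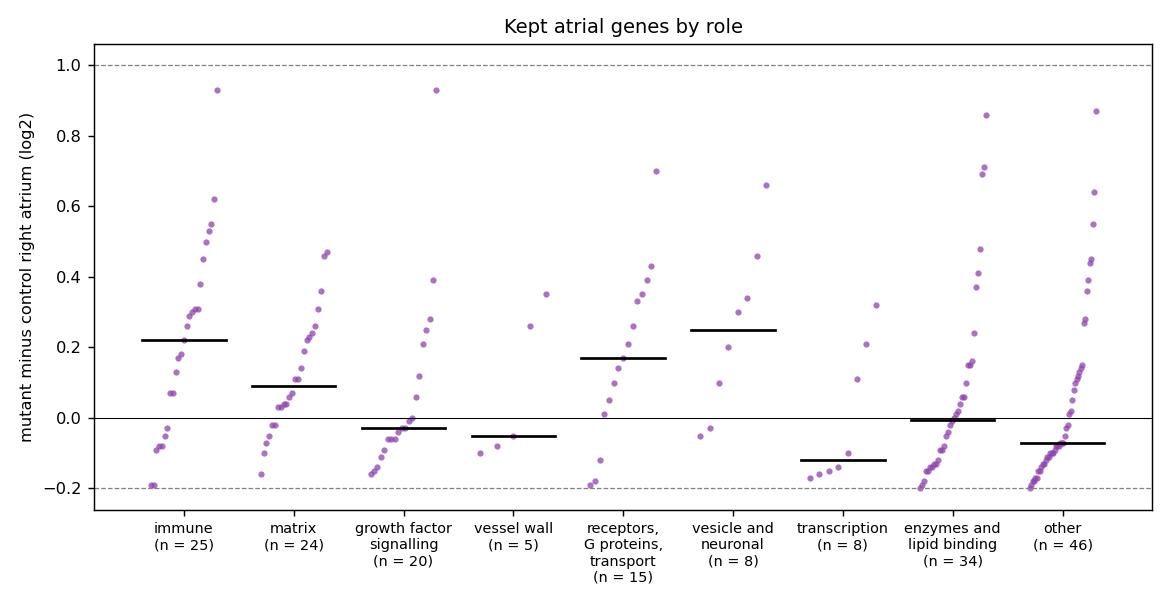
Mutant minus control atrium difference (y axis, log2) of the 185 kept atrial genes, 1 point per gene in rank order within each group of genes (x axis, number of genes in brackets), with a black line for the group median and dashed lines at the band from -0.2 to 1. The medians run from -0.12 in transcription to 0.25 in vesicle and neuronal genes, and every group has genes on both sides of 0.

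The median level over the 185 members was 9.50, 9.44 and 9.44 in the control atria, 9.46, 9.44 and 9.54 in the mutant atria and 7.91, 7.82 and 7.97 in the ventricles. The medians of the mutant atria overlapped with those of the control atria, and the ventricles were lower. The rule that chose the members largely set both, so nothing is read from these medians. In single genes the mutant arrays differed more, and in 46 members the array farthest from its group was mutant array 1, the mutant array with high Xist. The immune members were lower in mutant array 1 than the mean of their group by a median of 0.14, and the vessel wall members were higher by a median of 0.21. Without that array, 31 of the 185 members would lie more than 0.2 below the control atrium. Its part in the choice of members cannot be told apart from sex, since it is the only mutant array of its kind. The members included 15 genes of the X chromosome.

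The ventricular level varied widely among the members. In 69 of them the ventricular mean was under the median of all genes and arrays, 7.39, and in 29 it was at least 10. The 7 members with a chamber difference over 3 were Cd207, Vsig4, Cxcl13, Comp, Vit, Fgf7 and Bmx. A difference over 2 was found in 31 members, and under 1.5 in 106. A total of 20 members had a control atrium mean of at least 12.

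The thresholds divided genes with nearly equal values. At the level threshold, Gbp8, Icam4 and Chn2 had control atrium means of 7.01, 7.03 and 7.06 and were inside, and Itih2, N4bp2l1 and Nox4, at 6.99, 6.99 and 6.94, were outside. At the chamber threshold, Zbtb4, Fgfr1 and Ints6l each differed by 1.003, and Rin2, Ccr2 and Zfp385b by 0.998, 0.996 and 0.992. At the lower end of the band, Selenom, Gk5 and Pld1 were at -0.197, -0.195 and -0.191, and Dse, Kank1 and Foxc2 at -0.201, -0.203 and -0.204. The upper end was thinly filled, with Tnfsf13b, Nrtn and Plet1 inside at 0.933, 0.925 and 0.871 and Mmp3, Trnp1 and Cd44 outside at 1.123, 1.136 and 1.184.

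A total of 109 members had more than 1 probe set, which gave 209 further probe sets that the rule did not use. Of these, 108 had a control atrium mean of at least 7. Among the 108, 107 had a higher mean in the control atrium than in the ventricle, and 80 by at least 1. In the mutant, 92 of the 108 lay in the band, 16 lay below it and 0 lay above it, and 66 met the whole rule. The second probe set of Fgf7 had means of 7.14 in the control atria, 7.11 in the mutant atria and 5.93 in the ventricles. For Csf1r the other probe sets had mutant minus control differences of 0.52 and 0.53, but chamber differences of 0.78 and 0.18. These probe sets were read from the same 9 samples and are not independent of the rule.

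Lists of muscle, epicardial and liver genes held no member. Of 19 atrial muscle genes, 8 are left out by name (Bmp10, Kcna5, Kcnj3, Kcnj5, Myl4, Myl7, Nppa and Tbx5), and Nppa met every measured condition, so that the count of 0 members is partly fixed by the rule. Of the 19, 13 met the atrial conditions and lay below the band. In limma at an adjusted p under 0.05, 10 were lower and 2 higher in the mutant, against 9.79% and 7.76% of all genes. Dkk3, a secreted Wnt modulator of atrial muscle, differed by -1.37 ± 0.12 (SE, limma adjusted p = 0.000124), and Tbx5, a T-box factor, by -0.86 ± 0.09 (limma adjusted p = 0.000302). Kcnj5, a subunit of the muscarinic potassium channel, differed by -0.83 ± 0.10 (limma adjusted p = 0.000638), and Gja5, an atrial connexin whose control atrium mean of 6.59 was under the level threshold, by -1.09 ± 0.16 (limma adjusted p = 0.00190). The number called higher on this list was 0 without control atrium array 3, and 1 without mutant array 2 or 3, control atrium array 1 or 2, or ventricle array 1 or 2. Of 15 epicardial and mesothelial genes, 0 were members and 14 lay below the band. In limma 14 were lower in the mutant, against 9.79% of all genes, and 0 were higher, against 7.76%. Their summed intensity was 7131 to 8890 in the mutant atria, 15667 to 18474 in the control atria and 2858 to 3288 in the ventricles. All 11 hepatocyte genes measured lay below the band, and 0 were members. These values move with the atrial groups, and their part in which genes fell below the band was not tested.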

How the data were processed

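Transcript levels were measured on 9 Affymetrix arrays, 3 per group. The authors deposited a linear intensity for each probe set. Per the submitters' processing notes it was made with RMA, which corrects the background and normalises by quantiles. The version of RMA is not given in the sources used here. Of 45101 probe sets, 64 were controls, 932 named more than 1 gene and 9160 named none, and these were not used. The probe set with the highest mean was used for each of the 18193 genes. The log2 of the intensity was fitted with limma 3.58.1 (R 4.3.3), with a mean per group, 6 residual and 3.48 prior degrees of freedom, 2-sided tests and Benjamini-Hochberg adjustment over all genes at 0.05. The procedure was tested on simulated data. Depth does not apply to arrays, whose number limits the precision.

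The members and the gene lists were chosen with earlier results of these data known, and roles were assigned after the values were seen. A member is named with all 9 values when it has 1 of the 12 largest chamber differences, 1 of the 6 highest or lowest mutant differences or 1 of the 8 highest levels. The same holds when it lies next to a threshold, is on a list or has 1 of the 5 widest gaps of an array. It also holds for the groups of growth factors and their regulators, of transcription, and of receptors, G proteins and transport. Receptors placed in another group, such as the immune genes, do not fall under this. Some other members are given by group means or ranges, and the rest are not named. From the atrial muscle, granule and sinus node lists, up to 4 genes with the smallest adjusted p are named.

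Alternatives were quantile normalisation, median centring, the mean or each of a gene's probe sets, group medians, other thresholds, an intensity trend with robust variance, no dim genes, only the groups compared, a replicate block, a Y-linked covariate and leaving out each array. The labels call the replicates biological and say no more, so p-values measure the spread between these samples. Promoter sequences are from RefSeq, GRCm38.p6. Figures were drawn with matplotlib 3.10.9 in Python 3.11.15.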

Additional observations from a re-analysis of the deposited data

How the results depend on the processing

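The number of kept genes was 185 and moved with the rule. It was 79 with a chamber difference of at least 1.5 and 103 when every probe set of a gene had to meet the rule. It was 161 after quantile normalisation, 151 after median centring, 135 with the mean of the probe sets and 185 with group medians, where 159 genes were shared. Leaving out 1 array gave 162 to 212. With the Y-linked level as a covariate, an alternative added after seeing the data, it was 203, of which 165 were shared. The median mutant minus control difference of the members was 0.00 to 0.08 under the alternatives that recompute it for the same 185 genes. The genes called between mutant and control atrium numbered 3192 and ranged from 1832 to 3074 without 1 array. They were 1832 without mutant array 2, 1990 without mutant array 3, 1972 without control atrium array 1 and 2013 without control atrium array 2. Median centring turned 1411 higher and 1781 lower calls (44.2% higher) into 1751 and 1448 (54.7% higher). Between the control chambers it turned 44.7% into 25.9% higher and moved the median of all genes from -0.07 to -0.21. Leaving out the dimmest 40% of genes gave 57% higher there. Deviations from the group means correlated at -0.10 to 0.12 between arrays of the same replicate number. Arrays of different numbers gave -0.16 to 0.15. With 3 arrays per group, these values cannot show whether the numbers pair the samples. The replicate block gave 2704 calls between the atria. It gave 9199 calls between the control chambers, against 9615, and 5573 between mutant atrium and ventricle, against 5956. Among other values, a gene's difference counted as unchanged when it shifted by less than the pooled standard deviation of its atrial replicates. A list count did so when it changed by a factor of at most 1.5. Reversals of direction were not checked separately. Of 562 such values, 525 were unchanged and 37 moved. The cause was not tested. With 3 arrays per group the precision is limited by their number.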
